A study of Mus musculus with 12 samples.

Results

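Matrix metalloproteinases (Mmp) and tissue inhibitors of metalloproteinases (Timp) were followed here as 10 genes, Timp1, Timp2, Timp3, Mmp2, Mmp8, Mmp9, Mmp12, Mmp13, Mmp14 and Mmp19. The genes were chosen by name, and all 10 were found among the 14188 genes of the protein-coding table, with 15 of its 29883 transcripts. Liver RNA of 6 PZH mice and 6 control mice was sequenced to compare fibrotic livers with and without PZH (Pien Tze Huang, a traditional Chinese medicine). All 12 mice were given CCl4, a solvent that injures hepatocytes, by intraperitoneal injection 2 times per week, as 10 µl per g of a mixture with corn oil. In the PZH group, PZH was added at 0.25 mg per g into the stomach 1 time per day, and double distilled water took its place in the control group. The mice were male, 6 weeks old at the start and were killed in week 8, and 15 mice per group entered the experiment. The labels spell the strain C57BL/8, while the methods of the study give it as C57BL/6J. Livers without CCl4 were not analysed here, so every value describes an injured liver.

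Metalloproteinases are zinc-dependent enzymes that are made as inactive proenzymes and cut collagens, laminins, elastin and other proteins of the extracellular matrix once activated. Timp proteins bind the active site of these enzymes and block it. In fibrotic liver, activated stellate cells are a known source of Timp1 and Mmp2, macrophages of Mmp12 and Mmp13, and neutrophils of Mmp8 and Mmp9. Stored protein and enzyme activity are not read out by RNA levels.

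Of the 10 genes, 5 fell in the PZH group (Timp1, Mmp9, Mmp12, Mmp13 and Mmp14), 2 rose (Timp2 and Mmp2) and 3 did not pass the test (Timp3, Mmp8 and Mmp19). A gene was called at an adjusted p below 0.05, from limma on log2(gene FPKM + 1) with Benjamini-Hochberg adjustment over all 14188 genes. FPKM is the number of fragments scaled to transcript length and to the total of the library, and gene FPKM is the sum over the listed transcripts of a gene. Calls were frequent in this comparison, with 44.8% of all genes called, 32.1% lower and 12.7% higher in the PZH group. The median difference was -0.38 on the log2 scale over the 10 genes and -0.11 over all genes. At a 2-fold change with an unadjusted p below 0.05, 4 of the 10 were called, all of them lower, against 2.5% of all genes called lower and 1.52% called higher by the same rule. Dividing each mouse by a median-ratio scale factor put the median of all genes at -0.001, changed the share of calls that were higher from 28.3% to 50.6%, and gave 5 members that fell and 4 that rose. Because whole liver was sequenced, fewer cells of a type and less RNA per cell cannot be told apart in any of these values.

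**Figure D1:**
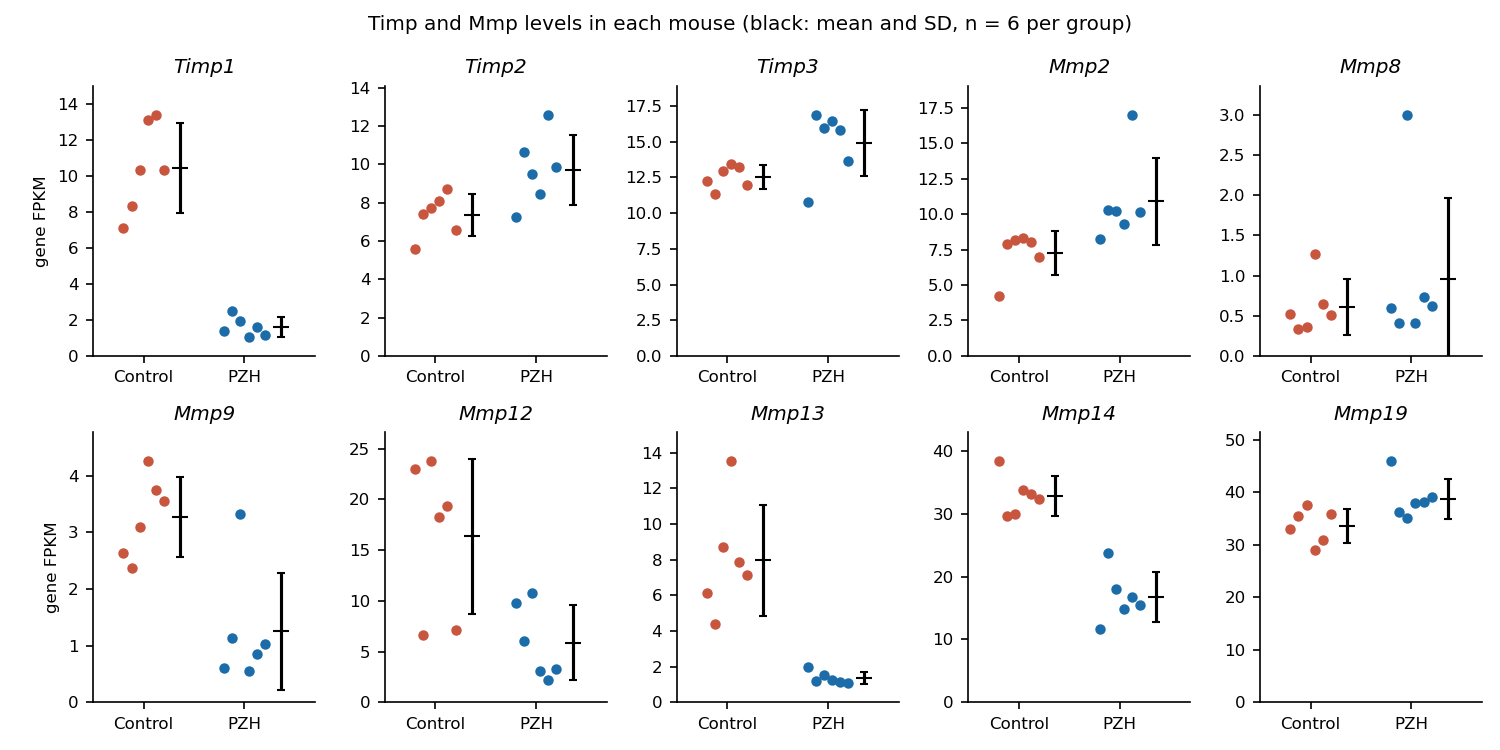
Gene FPKM of the 10 genes on linear axes from 0, with 1 point per mouse (red, control; blue, PZH) and the mean with its SD in black (n = 6 per group; the lower end of the Mmp8 bar in the PZH group is cut at 0). Timp1, Mmp13 and Mmp14 are lower in every PZH mouse than in any control mouse, and PZH mouse 3 lies at 3.0 for Mmp8 and 3.32 for Mmp9, apart from the other PZH mice.

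Timp1, an inhibitor of most secreted metalloproteinases that is induced in injured liver, showed the largest change among the 10 genes. In the PZH mice its level was 1.06 at the lowest, 1.48 at the median and 2.50 FPKM at the highest. In the control mice the corresponding levels were 7.14, 10.3 and 13.4 FPKM. Every PZH mouse was therefore below every control mouse, a pattern that 17.9% of all genes showed in this direction. The mean was 1.61 ± 0.541 FPKM (SD, n = 6) in the PZH group against 10.5 ± 2.5 FPKM (SD, n = 6) in the controls, which was 6.5 times as high. The log2 difference was -2.13 with an SE of 0.16 (limma, adjusted p = 7.17e-06), and it stayed between -2.22 and -2.06 when each mouse was left out in turn. Timp1 (ENSMUSG00000001131, GRCm38 chrX:20870166-20874735, plus strand) lies within Syn1 on the opposite strand, and whether the counting used strand is not given in the sources used here. Timp3 (with Syn3), Mmp12 (with Mmp1b) and Mmp19 (with Tmem198b and Gm47093) also overlap genes on the opposite strand, and Timp2 overlaps Cep295nl on its own strand. These overlaps are of whole gene spans, and exons were not compared. Whether reads are shared with these genes is therefore not known, and any that are cannot be told apart in the values of the members.

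The other inhibitors moved the opposite way or did not pass. Timp2, which inhibits metalloproteinases and also takes part in the activation of pro-Mmp2 by Mmp14, ranged from 7.26 to 12.6 FPKM in the PZH mice (median 9.67) and from 5.60 to 8.68 FPKM in the control mice (median 7.55). The groups overlapped, with 4 of 6 PZH mice above the highest control mouse. Timp2 rose by 0.35 on the log2 scale (SE 0.12; limma, adjusted p = 0.0312). This call was lost without PZH mouse 2 (0.33, limma adjusted p = 0.0596), 5 (0.28, 0.0647) or 6 (0.35, 0.0568), without control mouse 1 (0.29, 0.0678) or 6 (0.33, 0.0636), and with rescaling to an equal sum (0.32, limma adjusted p = 0.0763). Timp3, an inhibitor that is held in the matrix and also blocks Adam17, ranged from 10.8 to 16.9 FPKM in the PZH mice (median 15.9) and from 11.3 to 13.4 FPKM in the control mice (median 12.6). PZH mouse 1 was below all control mice and the other 5 PZH mice were above them. The log2 difference of Timp3 was 0.22 with a 95% interval from 0.01 to 0.43 (limma, adjusted p = 0.0828). Without PZH mouse 1 it was 0.31 (limma, adjusted p = 0.00318), and with the median-ratio scale factor it was 0.40 (limma, adjusted p = 0.002).

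The makeup of the inhibitor transcripts differed accordingly. Timp1 made up 28.6% to 38.0% of the summed FPKM of Timp1, Timp2 and Timp3 in the control mice (mean 34.1% ± 3.84, SD, n = 6) and 4.08% to 8.34% in the PZH mice (mean 6.11% ± 1.64, SD, n = 6). The summed level of the 3 inhibitors was 26.2 ± 3.95 FPKM (SD, n = 6) in the PZH group against 30.3 ± 4.13 FPKM (SD, n = 6) in the controls, with overlapping ranges of 19.4 to 30 and 25.0 to 35.3 FPKM. These shares are descriptions, since Timp1 enters each of them.

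Among the secreted collagenases, Mmp13 fell and Mmp8 did not pass the test. Mmp13, the main interstitial collagenase of rodents (ENSMUSG00000050578, GRCm38 chr9:7272514-7283331, plus strand), was at 1.08, 1.21 and 1.96 FPKM at the lowest, median and highest in the PZH mice. In the control mice it was at 4.40, 7.52 and 13.5 FPKM. The groups did not overlap. The means were 1.36 ± 0.339 and 7.96 ± 3.1 FPKM (SD, n = 6 each), and the log2 difference was -1.87 with an SE of 0.19 (limma, adjusted p = 2.25e-05). Mmp8, the collagenase stored in neutrophil granules, was at 0.406, 0.605 and 3.0 FPKM in the PZH mice and at 0.340, 0.514 and 1.27 FPKM in the control mice. Its log2 difference of 0.20 had a 95% interval from -0.31 to 0.70 (limma, adjusted p = 0.523), and without PZH mouse 3 the difference was -0.03.

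Mmp12, the elastase of macrophages, had the largest SE of the 10 genes, 0.40 on the log2 scale. Its levels were 2.20, 4.67 and 10.8 FPKM at the lowest, median and highest in the PZH mice. In the control mice they were 6.63, 18.8 and 23.7 FPKM. Of the PZH mice, 4 were below the lowest control mouse, while PZH mice 1 and 3, at 9.82 and 10.8 FPKM, lay above control mice 2 and 6, at 6.63 and 7.18 FPKM. Mmp12 fell by 1.36 on the log2 scale (limma, adjusted p = 0.0143), and the difference stayed between -1.57 and -1.18 when each mouse was left out.

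The sequence before the start of Mmp13, Mmp12 and Timp1 is shown. These genes fell, and Mmp13 and Timp1 are textbook targets of AP-1, the Fos and Jun transcription factor dimer. Mmp14 also fell and has a window, but its sequence is not shown. The sequences are from RefSeq on GRCm38.p6, from 250 bases before the annotated start to 30 bases after it, on the plus strand. Capitals mark a match to the AP-1 motif TGANTCA, which reads the same on both strands. In windows of 300 bases (250 before and 50 after the start), 7.81% of 32851 windows held this motif, and windows were found for 7 of the 10 members. The other members, Mmp2, Mmp9 and Mmp19, are named only.
Mmp13, chr9:7272264-7272543: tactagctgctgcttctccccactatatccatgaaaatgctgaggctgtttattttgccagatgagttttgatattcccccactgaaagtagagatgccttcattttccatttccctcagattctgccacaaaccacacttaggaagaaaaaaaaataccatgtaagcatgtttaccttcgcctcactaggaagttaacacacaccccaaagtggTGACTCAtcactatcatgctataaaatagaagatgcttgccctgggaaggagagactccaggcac
Mmp12, chr9:7347124-7347403: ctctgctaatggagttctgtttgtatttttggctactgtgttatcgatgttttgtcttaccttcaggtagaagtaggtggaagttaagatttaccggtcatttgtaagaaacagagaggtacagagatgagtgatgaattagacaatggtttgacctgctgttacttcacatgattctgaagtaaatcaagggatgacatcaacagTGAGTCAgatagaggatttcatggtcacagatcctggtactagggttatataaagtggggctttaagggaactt
Timp1, chrX:20869916-20870195: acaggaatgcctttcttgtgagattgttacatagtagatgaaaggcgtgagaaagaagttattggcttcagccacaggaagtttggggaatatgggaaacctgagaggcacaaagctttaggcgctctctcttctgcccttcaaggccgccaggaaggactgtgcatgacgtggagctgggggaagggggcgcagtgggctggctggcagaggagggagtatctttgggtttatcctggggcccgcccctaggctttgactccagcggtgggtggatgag
The match began 35 bases before the start of Mmp13 and 44 bases before the start of Mmp12. No match lay in the windows of Timp1, Timp2, Timp3, Mmp8 and Mmp14, or in the window of the other annotated start of Mmp12. The related letters TGAGTAA, searched on both strands after the sequences had been seen and held by 2.68% of all windows, began 27 bases after the start of Timp1. The letters AGGAAG, also searched as an Ets motif on both strands, were held by 35.4% of all windows. Windows of Timp1, Timp3, Mmp8, Mmp13 and Mmp14 held them, as did that of the other annotated start of Mmp12. These matches are descriptions of the letters and say nothing of binding.

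The gelatinases went in opposite directions. Mmp9, a gelatinase of neutrophils and macrophages, was at 0.554, 0.949 and 3.32 FPKM at the lowest, median and highest in the PZH mice and at 2.36, 3.32 and 4.25 FPKM in the control mice. All PZH mice except mouse 3 were below every control mouse. Mmp9 fell by 1.0 on the log2 scale (SE 0.22; limma, adjusted p = 0.00235), and without PZH mouse 3 the difference was -1.21 (limma, adjusted p = 7.39e-05). Mmp2, a gelatinase of stellate cells and other mesenchymal cells, was at 8.28, 10.2 and 17.0 FPKM in the PZH mice and at 4.24, 7.96 and 8.30 FPKM in the control mice. In 5 of 6 PZH mice Mmp2 was above the highest control mouse, and PZH mouse 1, at 8.28 FPKM, was just below it. Mmp2 rose by 0.52 on the log2 scale (SE 0.17; limma, adjusted p = 0.0255), with 0.39 to 0.58 when each mouse was left out.

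Mmp14, the membrane-bound metalloproteinase that activates pro-Mmp2 at the cell surface, fell, as did the secreted Mmp9, Mmp12 and Mmp13. It was at 11.6, 16.2 and 23.7 FPKM at the lowest, median and highest in the PZH mice and at 29.6, 32.7 and 38.3 FPKM in the control mice. The groups did not overlap. The means were 16.7 ± 4.02 and 32.8 ± 3.16 FPKM (SD, n = 6 each), with a log2 difference of -0.96 and an SE of 0.13 (limma, adjusted p = 0.000122). The members that take part in activating pro-Mmp2 therefore differed in direction, since Mmp14 fell while Timp2 and Mmp2 itself rose. Mmp19, a secreted metalloproteinase of broad substrate range, was the most abundant member in both groups, at 35.1, 38.0 and 45.9 FPKM in the PZH mice and 29.0, 34.3 and 37.6 FPKM in the control mice. The ranges overlapped, and the log2 difference of 0.20 had a 95% interval from 0.02 to 0.37 (limma, adjusted p = 0.0633). With the median-ratio scale factor the difference was 0.39 (limma, adjusted p = 0.00845), and without control mouse 3 it was 0.23 (limma, adjusted p = 0.0413).

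**Figure D2:**
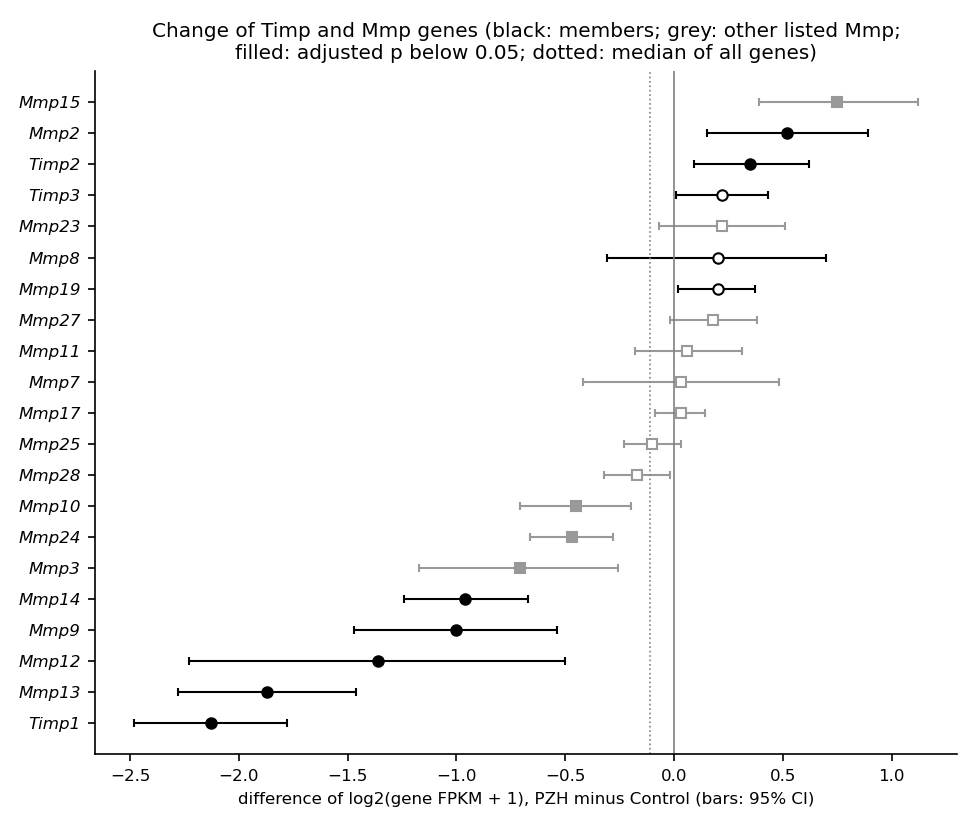
Difference of log2(gene FPKM + 1), PZH minus control, with its 95% interval from limma, for the 10 genes (black circles) and 11 other metalloproteinase genes (grey squares), filled where the adjusted p was below 0.05; the dotted line is the median of all genes, -0.11. Timp1 (-2.13) and Mmp13 (-1.87) lie lowest, and Mmp15 (0.75) and Mmp2 (0.52) highest. The added 1 FPKM compresses the differences of genes at low levels.

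Because FPKM is divided by transcript length, the levels of the members can be placed in order. In the control group the order by mean FPKM was Mmp19, Mmp14, Mmp12, Timp3, Timp1, Mmp13, Timp2, Mmp2, Mmp9 and Mmp8. Neighbours in this order were often not separated, since Mmp19 was above Mmp14 in 3 of 6 control mice, Mmp12 above Timp3 in 4, Mmp13 above Timp2 in 4 and Timp2 above Mmp2 in 2. In the PZH group the order was Mmp19, Mmp14, Timp3, Mmp2, Timp2, Mmp12, Timp1, Mmp13, Mmp9 and Mmp8. Mmp19 was above Mmp14 in all 6 PZH mice, while Timp2 was above Mmp12, and Timp1 above Mmp13, in 4 of 6. The summed level of the 7 metalloproteinases was 67.3 to 82.0 FPKM in the PZH mice against 86.8 to 111.7 FPKM in the control mice. Mmp19 made up 51.4% ± 6.21 (SD, n = 6) of this sum in the PZH group against 33.4% ± 5.4 (SD, n = 6) in the controls.

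The ratio of each metalloproteinase to Timp1 was taken in every mouse. The Mmp2 to Timp1 FPKM ratio was 4.13, 7.37 and 10.7 at the lowest, median and highest in the PZH mice and 0.594, 0.654 and 0.944 in the control mice. Mmp2 was thus below Timp1 in every control mouse and above it in every PZH mouse. The Mmp19 to Timp1 ratio was 14.5, 28.7 and 35.8 in the PZH mice and 2.21, 3.55 and 4.63 in the control mice. The Mmp14 to Timp1 ratio, although both genes fell, was 8.49, 10 and 14.0 in the PZH mice against 2.47, 3.01 and 5.37 in the control mice. The ratio of Mmp9 to Timp1 was 0.445, 0.532 and 1.7 against 0.279, 0.311 and 0.369, and that of Mmp8 was 0.164, 0.447 and 1.53 against 0.0344, 0.0487 and 0.0966. On the scale of log2(FPKM + 1), the ratios of Mmp2, Mmp8, Mmp9, Mmp14 and Mmp19 to Timp1 were higher in every PZH mouse than in any control mouse, by 2.65, 2.33, 1.13, 1.17 and 2.33. For each of these 5 the two-sided exact permutation p was 0.0022, the smallest that 6 against 6 mice allow.

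The ratios of Mmp13 and Mmp12 to Timp1 did not pass the test. The Mmp13 to Timp1 ratio was 0.469, 0.859 and 1.43 at the lowest, median and highest in the PZH mice and 0.526, 0.767 and 1.03 in the control mice, with a log2 difference of 0.26 (two-sided exact permutation test, p = 0.2056). The Mmp12 to Timp1 ratio was 1.38, 2.84 and 7.17 in the PZH mice and 0.696, 1.42 and 3.22 in the control mice, with a log2 difference of 0.77 (two-sided exact permutation test, p = 0.1126). Both pairs of ranges overlapped. All 7 ratios share Timp1, and most genes have a higher ratio to a gene that fell this far. Of the ratios of all other genes to Timp1, 99.2% were higher in the PZH group at an exact permutation p below 0.05 and 96.5% did not overlap. The median log2 difference of all these ratios was 2.02, and the ratios of Mmp9, Mmp12, Mmp13 and Mmp14 were below it. The 5 higher ratios therefore follow the background of the table. Mmp12 and Mmp13 were not among the 14077 of 14187 genes with a higher ratio. Each ratio difference is the log2 difference of the gene minus that of Timp1 (-2.13). The ratios of Mmp12 and Mmp13 thus restate the gene-level falls of 1.36 (SE 0.40) and 1.87 (SE 0.19) and add no separate result.

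**Figure D3:**
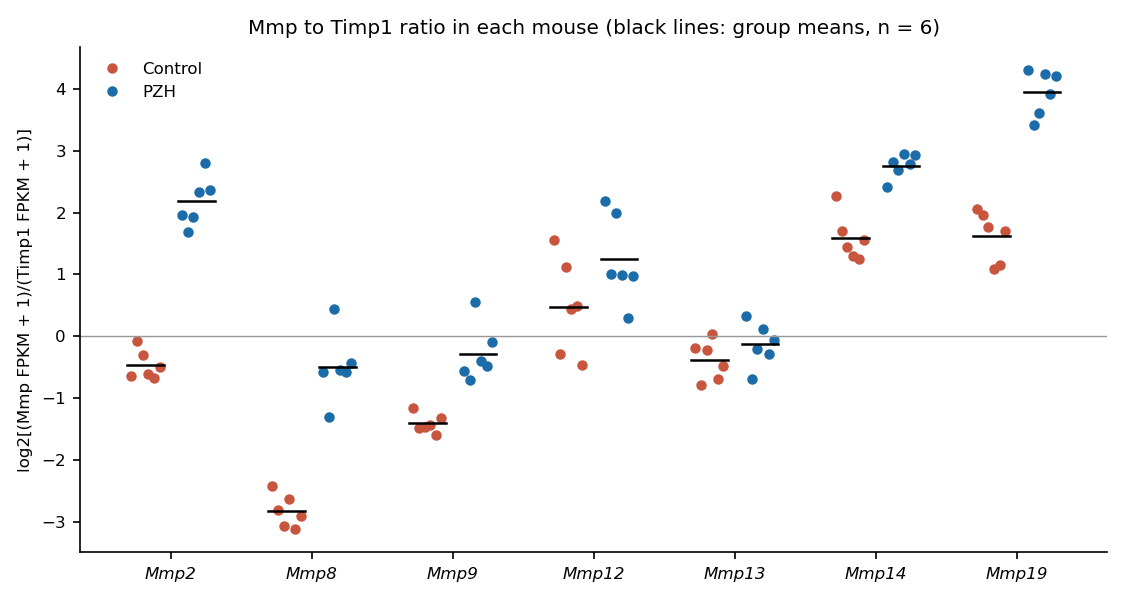
Ratio of each metalloproteinase to Timp1 as log2[(Mmp FPKM + 1)/(Timp1 FPKM + 1)], with 1 point per mouse (red, control; blue, PZH) and group means as black lines (n = 6). The groups are apart for Mmp2, Mmp8, Mmp9, Mmp14 and Mmp19 and overlap for Mmp12 and Mmp13.

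The 10 genes were listed with 15 transcripts, 5 genes with 2 and 5 genes with 1. Of these transcripts 6 fell, 1 rose and 8 did not pass (limma over all 29883 transcripts, of which 14.0% were called lower and 5.73% higher). At a 2-fold change with an unadjusted p below 0.05, 5 transcripts were called, all lower, against 1.99% of all transcripts called lower and 1.24% called higher. Timp1-202 (ENSMUST00000115342, GRCm38 chrX:20870166-20874733) was at 1.03, 1.11 and 1.44 FPKM at the lowest, median and highest in the PZH mice and at 4.88, 7.49 and 11.8 FPKM in the control mice. It fell by 1.95 on the log2 scale (SE 0.17; limma, adjusted p = 7.72e-05). Timp1-201 (ENSMUST00000009530, GRCm38 chrX:20870221-20874735), whose annotated start lies downstream of that of Timp1-202, was at 0.0, 0.381 and 1.06 FPKM in the PZH mice and at 0.98, 1.51 and 8.05 FPKM in the control mice. It fell by 1.22 on the log2 scale (SE 0.35; limma, adjusted p = 0.03), or by 2.53 with a pseudocount of 0.1 (limma, adjusted p = 0.0277), and this call was lost without PZH mouse 1, 4 or 6 or control mouse 2 (limma, adjusted p of 0.056, 0.0667, 0.0665 and 0.0606). In control mouse 5 Timp1-201 made up 60% of Timp1, and the median share was 14.6% in the control mice and 25.1% in the PZH mice. Timp1-202 and Timp1-201 have 6 exons each, lengths of 883 and 833 bases and nearly the same start and end. Many reads may fit both, so the split between them is uncertain.

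**Figure D4:**
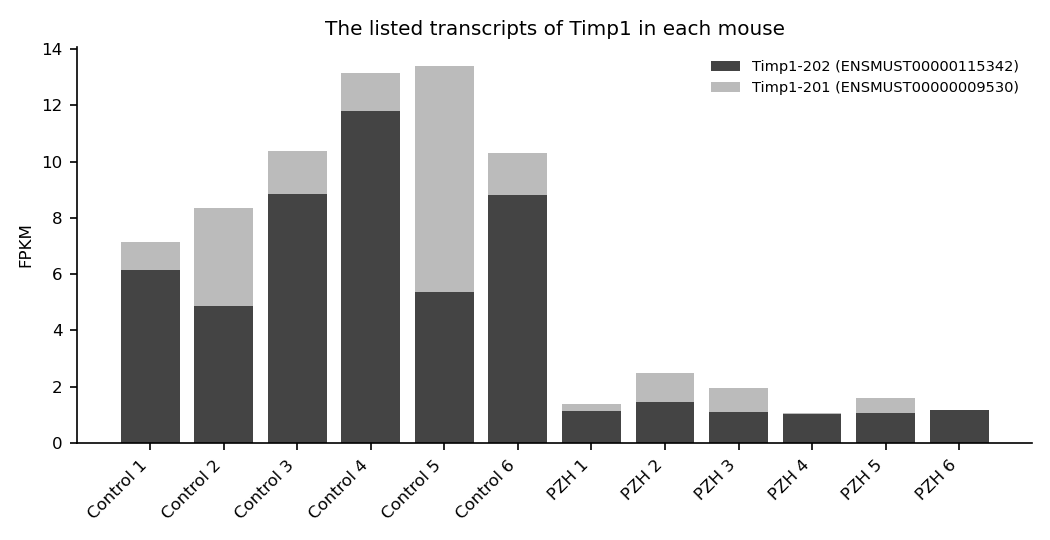
FPKM of the listed Timp1 transcripts in each mouse as stacked bars from 0 (dark, Timp1-202; light, Timp1-201). The PZH mice reach 1.06 to 2.50 FPKM in total and the control mice 7.14 to 13.4 FPKM, and control mouse 5 is the one mouse with a light bar, at 8.05 FPKM, taller than its dark bar.

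Mmp19-201 (ENSMUST00000026411, GRCm38 chr10:128790961-128800824) was the transcript that rose. It was at 30.9, 32.7 and 39.6 FPKM at the lowest, median and highest in the PZH mice and at 23.5, 28.0 and 30 FPKM in the control mice. The log2 difference was 0.27 with an SE of 0.08 (limma, adjusted p = 0.0245). The other listed transcript, Mmp19-203, was at 5.28 ± 1.63 FPKM (SD, n = 6) in the PZH group against 6.18 ± 2.44 FPKM (SD, n = 6) in the controls, a log2 difference of -0.16 (limma, adjusted p = 0.748). Mmp14-201 (-0.96), Mmp13-201 (-1.87), Mmp9-201 (-1.0) and Mmp12-201 (-1.36) fell with the same log2 differences as their genes. The Mmp12 transcript call was held less firmly than the gene call, since leaving out any of 8 mice in turn gave adjusted p values above 0.05. The main transcripts of Mmp2 (0.52, limma adjusted p = 0.0503), Timp2 (0.35, 0.0707) and Timp3 (0.24, 0.116) did not pass.

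PZH mouse 3 stood apart in Mmp8 and Mmp9, at 3.0 and 3.32 FPKM, where the other PZH mice had at most 0.733 and 1.14 FPKM. The summed FPKM of 11 neutrophil markers was 175.1 in this mouse, 14.8 to 25.8 in the other PZH mice and, among the controls, 19.9 to 65.8. Ly6g, a defining neutrophil marker, was listed at 0 in a PZH mouse and at no more than 0.952 FPKM in any. Each of the 11 was highest in PZH mouse 3 among the PZH mice, with S100a8 at 76.0 against at most 8.10 FPKM and Ngp at 17.7 against at most 2.40 FPKM in the others. Control mouse 4 had the highest sum of its group, 65.8, and also the highest Mmp8 and Mmp9 of its group, 1.27 and 4.25 FPKM. Of the 11 markers 0 rose and 2 fell over all mice (limma), Cxcr2 (-0.66) and Csf3r (-0.64), while Ngp was higher in every PZH mouse (lowest 0.327 FPKM) than in any control mouse (highest 0.25 FPKM), with a log2 difference of 1.16 that did not pass (limma, adjusted p = 0.0962). At the 2-fold change with an unadjusted p below 0.05, 1 of the 11 rose, beside 1.52% of all genes. At the adjusted threshold, 12.7% of all genes rose and 32.1% fell. Without PZH mouse 3, 2 rose, Ngp (0.59) and Ltf (0.35), and 3 fell, Cxcr2 (-0.76), Csf3r (-0.76) and S100a8 (-0.89). PZH mouse 3 also had the highest level among the PZH mice of 6 of 7 Kupffer cell markers. Their sum was 280.8 FPKM, where the other PZH mice had 191.3 to 204.1 FPKM. The same held for 5 of 7 sinusoidal endothelial markers, with a sum of 111.9 against 88.2 to 99.5 FPKM. It also held for 5 of 10 markers of monocyte-derived macrophages and 5 of 15 inducers of metalloproteinase and Timp1 genes. Among these inducers, Egr1 was at 6.92 against at most 2.49 FPKM. For stellate cell and myofibroblast markers it was 1 of 12, for hepatocyte markers 0 of 8 and for cholangiocyte markers 0 of 5. The part of RNA from neutrophils, Kupffer cells or other cell types in the Mmp8 and Mmp9 values was not tested. The counts of members that rose and fell were 2 and 5 without PZH mouse 3 as well.

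**Figure D5:**
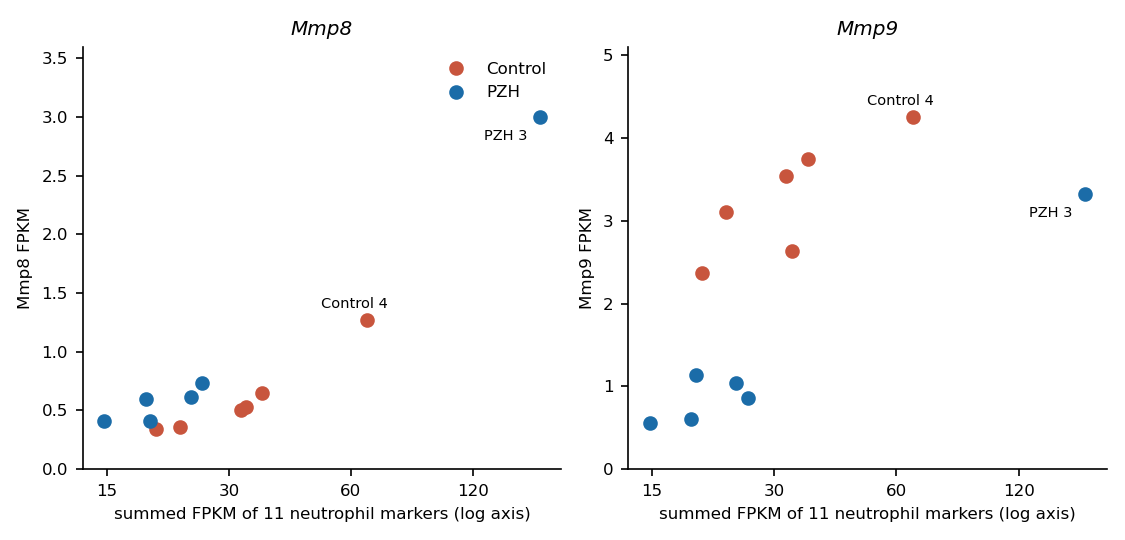
Mmp8 and Mmp9 FPKM (linear axes from 0) against the summed FPKM of 11 neutrophil markers (log axis), with 1 point per mouse (red, control; blue, PZH). PZH mouse 3, at a sum of 175.1, and control mouse 4, at 65.8, are highest in Mmp8, and for Mmp9 the other 5 PZH mice lie at 0.554 to 1.14 FPKM, below all control mice.

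The other metalloproteinases in the table were 11 of 17 genes looked for, of which 1 rose and 3 fell, with a median log2 difference of 0.03. Over all genes 12.7% rose and 32.1% fell. Mmp15, a membrane-type metalloproteinase related to Mmp14, rose by 0.75 on the log2 scale (7.54 ± 1.84 against 4.02 ± 0.913 FPKM, SD, n = 6 each; limma, adjusted p = 0.00304). Mmp3 (stromelysin-1), Mmp24 and Mmp10 (stromelysin-2) fell, by 0.71, 0.47 and 0.45 on the log2 scale (limma, adjusted p of 0.0151, 0.000776 and 0.00796), all from mean levels below 1 FPKM. The 1 FPKM added before the log2 step compresses changes at such low levels. Mmp3 had means of 0.0833 FPKM in the PZH group and 0.884 FPKM in the controls. The corresponding means were 0.232 and 0.715 FPKM for Mmp24 and 0.0212 and 0.426 FPKM for Mmp10. Mmp13, Mmp12, Mmp3 and Mmp10, which fell, and Mmp8, Mmp27 and Mmp7, which did not pass, lie in the metalloproteinase cluster on chromosome 9, at starts from 7272514 to 7692090 of GRCm38. In coordinate order, among these genes only, Mmp13, Mmp12, Mmp3 and Mmp10 come first and Mmp8, Mmp27 and Mmp7 follow. Genes looked for but not in the table, such as Mmp1b, which overlaps Mmp12, leave gaps in this order.

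Among 10 genes of the plasminogen system and other activators of metalloproteinases, 3 rose and 3 fell, with a median log2 difference of 0.08. The counts in this paragraph are to be read beside the 12.7% of all genes that rose and the 32.1% that fell. The urokinase receptor Plaur (-1.65), urokinase Plau (-0.68) and tissue plasminogen activator Plat (-0.67) fell, and cathepsin K, Ctsk, rose by 0.34 on the log2 scale (limma, adjusted p = 0.0208). Of 7 genes for clearance and other inhibitors, 2 rose and 2 fell, and A2m was looked for but not listed. Thbs1, thrombospondin-1, fell by 2.54 and Cd63, a surface partner of Timp1, by 0.41 on the log2 scale, while the membrane inhibitor Reck rose by 0.44 and Thbs2 by 0.43. Among 15 Adam and Adamts proteases, 2 rose and 6 fell. Adamts1 (-1.45), Adam8 (-1.35) and Adamts4 (-1.15) were lower in the PZH group, and the aggrecanase Adamts5 (0.90) was higher.

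Of 16 matrix proteins that metalloproteinases cut, 2 rose, 6 fell and 8 did not pass, with a median log2 difference of -0.12. The shares over all genes were 12.7% higher and 32.1% lower. The basement membrane genes Nid1 (-1.20) and Lamc1 (-0.65) and the proteoglycan Vcan (-1.20) fell, and the fibrillar collagen Col3a1 rose (0.62). Col1a1, the main fibrillar collagen of scars, differed by 0.18 with an SE of 0.23 (limma, adjusted p = 0.556).

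Of 15 known inducers of metalloproteinase and Timp1 genes, 14 fell and 0 rose, against the 32.1% of all genes called lower. Il6 and Osm, also among the 17 inducers looked for, were not listed and have no value here. Their median log2 difference was -1.25. Egr1, an immediate early transcription factor, fell by 2.1 on the log2 scale, and the AP-1 subunits Fos and Jun fell by 1.86 and 1.57. The cytokine Il1b fell by 1.55. Fos was at 0.439, 0.668 and 0.941 FPKM at the lowest, median and highest in the PZH mice and at 2.59, 4.21 and 12.3 FPKM in the control mice. Ets1 was the one listed gene that did not pass (-0.24; limma, adjusted p = 0.416). The count of 14 held when each mouse was left out in turn.

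Markers of the cells that make these proteins did not move in 1 direction. Their counts stand beside the 12.7% of all genes that rose and the 32.1% that fell. Each sum of FPKM is led by its most abundant markers and can hide changes of the others. In the stellate list Dcn had means of 184.0 FPKM in the PZH group and 169.8 FPKM in the controls. Spp1 made up most of the cholangiocyte sum, with means of 94.1 and 120.8 FPKM, and Alb most of the hepatocyte sum. Of 12 stellate cell and myofibroblast markers, 1 rose and 4 fell, and their summed FPKM was 260.7 to 312.6 in the PZH mice against 222.9 to 321.6 in the control mice. The contractile genes Tagln (-1.38) and Acta2 (-0.92) and the collagen cross-linking enzyme Lox (-0.57) fell, and Reln (0.98) rose. Of 7 Kupffer cell markers, 2 rose and 1 fell, with sums of 191.3 to 280.8 and 173.1 to 241.9 FPKM, and the scavenger receptor Marco fell by 2.21 on the log2 scale while Clec4f (0.60) and Vsig4 (0.57) rose. PZH mouse 3 alone set the upper end of the Kupffer sums in its group, and without it Clec4f no longer passed (0.50; limma, adjusted p = 0.0548). Of 10 markers of monocyte-derived macrophages, 2 rose and 5 fell, with sums of 129.7 to 204.0 and 166.7 to 265.5 FPKM, among them Lgals3 (-1.29), Itgam (-0.87), Ly6c2 (-0.66) and, higher in the PZH group, Gpnmb (1.17). Of 7 sinusoidal endothelial markers, 0 rose and 2 fell, Lyve1 (-0.62) and Pecam1 (-0.29), with sums of 88.2 to 111.9 and 98.6 to 111.0 FPKM. Of 5 cholangiocyte markers 1 fell, Sox9 (-1.64), and Spp1 (-0.39) and Krt19 (-0.04) did not pass, with sums of 66.9 to 133.3 and 96.9 to 161.0 FPKM. Cftr was looked for as a further cholangiocyte marker but was not listed. The liver identity of the samples was visible in 8 hepatocyte markers, with Alb at means of 38436.8 and 24059.1 FPKM, and 4 of these rose and 1 fell (Hnf4a, -0.30). The summed hepatocyte markers were 43395.0 to 60380.0 FPKM in the PZH mice against 25169.3 to 38811.0 FPKM in the control mice, and the genes that rose were Cyp2e1, which activates CCl4 (2.24), the urea cycle enzyme Cps1 (0.85), Alb (0.68) and the carrier protein Ttr (0.68). The part of these cell types in the Timp and Mmp values was not tested.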

How the data were processed

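Liver RNA of 6 PZH and 6 control mice was sequenced by the authors after removal of ribosomal RNA, as strand-specific libraries with paired reads of 150 bp. Trimming by the authors used Trimmomatic (version not given), alignment to GRCm38 used HISAT2 2.1.0, and FPKM came from StringTie 1.3.5 with the Ensembl 95 annotation. The authors deposited FPKM per transcript and mouse (scaled to transcript length and library size) in 2 tables, of which the protein-coding one was used and the lncRNA one was not. Each listed transcript had a summed FPKM over the 12 mice of at least 1. Transcripts were assigned to genes with GENCODE M21 (29876 of 29883 matched).

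Gene FPKM was the sum over transcripts, analysed as log2(FPKM + 1) without a further filter, so fold changes of low genes are understated. Groups were compared with limma 3.58.1 in R 4.3.3, two-sided, with Benjamini-Hochberg adjustment over all genes or all transcripts and a call at 0.05. Ratios to Timp1 were compared by two-sided exact permutation over all labellings of the mice. Limma was also fitted to the ratios, but with variance moderation its p-values are too small there because all ratios share Timp1. They are given only as alternatives. Other steps used Python 3.11.15 (matplotlib 3.10.9, scipy 1.17.1, pandas 2.3.3, numpy 2.4.6). The limma step was tested on simulated data, with values drawn independently for each gene, and the outcome is not reported here.

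For each mouse an implied depth was taken as the best of many trial depths. It came to 27.55 to 42.85 M fragments in the PZH mice and 26.85 to 35.7 M in the control mice. Only 3.14% to 4.03% of low values fell on whole fragments (within 0.01), and some would do so at any trial depth. The depths are therefore uncertain, the counts could not be rebuilt and values carry no counting interval. The members, the gene lists and the tests were chosen with earlier results of these data known. From the list of the plasminogen system 1 gene is not reported here. All 10 members are named. For other lists up to 4 called genes with the largest change are named, or the 2 with the highest mean FPKM where fewer than 2 were called, and other genes named were chosen after their values were seen. Of member transcripts, those called and the most abundant of each gene are named. Alternatives were scaling by a median-ratio factor or to an equal sum, no variance moderation, a mean-variance trend, the mouse number as a replicate block, calls at a 2-fold change with unadjusted p, a pseudocount of 0.1, testing only features whose mean FPKM reached 1, and leaving out single mice.

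The labels name separate mice and no batch, and no pooling is stated.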

Additional observations from a re-analysis of the deposited data

Results flagged for a closer look

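Of 54 groups of 6 mice examined, 13 held a mouse far from the others. Its gap to its nearest neighbour, over the range of the group, was above Dixon's 95% critical value for 6 values. The chance rate of 1 in 20 behind that value holds for independent groups of normally distributed values. Genes, their transcripts and their ratios share values here and are on a linear scale, so the 13 cannot be compared with that rate. At the gene level these were PZH mouse 3 for Mmp8 (3.0 FPKM, the others 0.406 to 0.733) and Mmp9 (3.32 FPKM, the others 0.554 to 1.14), control mouse 4 for Mmp8 (1.27 FPKM, the others 0.340 to 0.651), PZH mouse 5 and control mouse 1 for Mmp2 (17.0 and 4.24 FPKM, the others of their groups 8.28 to 10.3 and 6.98 to 8.30) and PZH mouse 1 for Mmp19 (45.9 FPKM, the others 35.1 to 39.1).

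Among the ratios to Timp1, PZH mouse 3 stood apart for Mmp8 (1.53) and Mmp9 (1.7), and control mouse 1 for Mmp14 (5.37, the others 2.47 to 3.53). Without PZH mouse 3 the log2 differences of the Mmp8 and Mmp9 ratios were 2.14 and 0.96. Among the transcripts, Mmp19-201 was apart in PZH mouse 1 (39.6 FPKM), Mmp2-201 in PZH mouse 5 (16.2 FPKM), Timp1-202 in PZH mouse 2 (1.44 FPKM, the others 1.03 to 1.17) and Timp1-201 in control mouse 5 (8.05 FPKM, the others 0.98 to 3.48).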

How the results depend on the processing

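Of the alternatives run, 5 members fell in each that used the adjusted threshold, and no called value changed sign. Mmp8 and its transcript, not called in any, changed sign without PZH mouse 3 (-0.03 against 0.20) and were -0.03 to 0.30 with a mouse left out. The number that rose was 4 with the median-ratio factor, 1 with an equal sum, 0 at a 2-fold change with an unadjusted p, and 1 to 3 when each mouse was left out. Timp2 was 0.32 with an equal sum and 0.28 to 0.42 with a mouse left out, Timp3 0.40 with the median-ratio factor and 0.19 to 0.31 with a mouse left out, and Mmp19 0.39 and 0.15 to 0.23. For transcripts, the number that rose was 0 with a pseudocount of 0.1 or the 2-fold rule, 2 with a mean FPKM of at least 1, 4 with the median-ratio factor and 1 to 4 with a mouse left out. Mmp19-201 was 0.28 with a pseudocount of 0.1 and no longer passed, and that pseudocount moved Timp1-201 from -1.22 to -2.53, Timp1-202 from -1.95 to -2.57 and the Mmp8 to Timp1 ratio from 2.33 to 3.0, each past the threshold as before. Mmp2-201 passed with the filter (0.52), and with the median-ratio factor (0.68), as did Timp3-201 (0.41) and Timp2-201 (0.52). Mmp12-201 no longer passed with the median-ratio factor (-1.20) or without moderation (-1.36), nor did Timp1-201 without moderation (-1.22). With a mouse left out, Mmp12-201 was -1.57 to -1.18, Timp1-201 -1.36 to -0.92, Timp2-201 0.28 to 0.42, Timp3-201 0.20 to 0.32 and Mmp2-201 0.40 to 0.58. The Mmp12 to Timp1 ratio (0.77) passed limma with a mean-variance trend, a fit whose p-values are too small for ratios. The number of neutrophil markers called was 4 with a pseudocount of 0.1, 1 with the filter and 2 to 5 with a mouse left out. The filter also left 1 of the other metalloproteinases called, and the median-ratio factor gave 8 stellate, 5 Kupffer and 2 cholangiocyte markers called. The causes of these changes were not tested, apart from the filter, which tests fewer genes and gives no value for Mmp8.

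Same-numbered mice did not pair, with correlations of their deviations from -0.078 to 0.093 and 0 of 6 correlating best with its own number. With the mouse number as a replicate block, 2 transcripts rose, Mmp19-201 did not pass (0.27), Timp2-201 (0.35) and Mmp2-201 (0.52) passed, the Mmp13 to Timp1 ratio had an exact sign-flip p of 0.0312 over 6 pairs (0.26), and no gene-level member call changed. FPKM without counts leaves the counting error of each value unknown, low genes such as Mmp8 included.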

Other observations

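The genes whose levels followed Timp1 most closely from mouse to mouse within both groups were Kank3, Abcc1, Pilrb1, Zfp626 and Elf2. The measure was the smaller of the Pearson correlations of log2(FPKM + 1) within the 6 PZH and within the 6 control mice, over 10947 genes whose mean FPKM reached 1, and it was 0.947, 0.94, 0.924, 0.903 and 0.899. With 6 mice per group and this many genes, values of this size are a description and carry no p. Of the 8 other members in this comparison, which left out Mmp8 for its low mean, the highest was Mmp9 with 0.533.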
